A study of Homo sapiens with 4 samples.

Results

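The mitochondrial ribosome, or mitoribosome, translates the few proteins encoded in mitochondrial DNA, all of them subunits of the respiratory chain complexes or of ATP synthase. Its RNAs come from the mitochondrial genome, but all of its proteins are encoded in the nucleus, made in the cytosol and imported. The genes described here are the protein-coding genes whose RefSeq symbol is MRPL or MRPS followed by a digit: 77 of 20037 protein-coding genes, with 49 MRPL genes named for the large subunit and 28 MRPS genes named for the small subunit. H3K14ac, acetylation of lysine 14 on histone H3, is a mark of active promoters and enhancers.

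H3K14ac was mapped by chromatin immunoprecipitation and sequencing (ChIP-seq) in MKN45, an established human gastric cancer cell line, under 2 conditions. One carried a short hairpin RNA against NIT2 (shNIT2), an omega-amidase of glutamine metabolism, and the other a control hairpin (shNT). Each condition had 1 H3K14ac library and 1 input library, and the deposited peak lists of the 2 H3K14ac libraries were analysed. The title of the study links NIT2 to oxidative phosphorylation, and the products of the mitoribosome are some of its subunits. With 1 library per condition there was no replicate and no test across samples. The intervals given are exact 95% Clopper-Pearson intervals and cover counting error only.

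The shNIT2 list held 28187 regions and the shNT list 39876. The median number of fragments at a summit, solved from the deposited values, was 22 in shNIT2 and 6 in shNT, and the shNT regions thus rested on fewer fragments. A gene without a region in shNT was not detected there, and is not shown to lack the mark. Fold enrichments are the authors' values at the summit of a region and were ranked within a list, not compared between lists. All 7 epithelial marker genes had a region in shNIT2 and 5 of 7 in shNT, led by KRT8 (24.6-fold in shNIT2, 14.8-fold in shNT). None of 5 fibroblast markers had one in either list, while 3 of 5 blood and 3 of 5 neuron markers did in shNIT2, against 1 and 2 in shNT. These counts stand beside 47.0% of all genes with a region in shNIT2 and 28.5% in shNT. The interval of 3 of 5 runs from 14.7 to 94.7%, so the blood and neuron counts cannot be told from the share of all genes. The lists hold no RNA, so the knockdown of NIT2 itself could not be checked.

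Most mitoribosomal genes carried an H3K14ac region in shNIT2 and few did in shNT. A gene was called marked when a region touched its span extended by 1 kb on both sides. In shNIT2, 49 of 77 genes were marked (63.6%, interval 51.9 to 74.3), beside 47.0% of all protein-coding genes. In shNT, 9 of 77 were marked (11.7%, interval 5.49 to 21.0), beside 28.5% of all genes. The share among mitoribosomal genes thus lay above that of all genes in shNIT2 and below it in shNT.

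Set side by side, 42 genes were marked in shNIT2 alone (54.5%, against 27.4% of all genes), 2 in shNT alone (2.60%, against 8.90%), 7 in both lists (9.09%, against 19.6%) and 26 in neither (33.8%, against 44.1%). Gene length went with the shNT calls. The median gene span was 8618 bp for mitoribosomal genes and 24115 bp for all genes, and the genes marked in shNT were longer in both sets, with medians of 36635 and 74421 bp. Over all genes, those marked in shNIT2 were also longer than those not marked (medians of 35897 and 16135 bp). Among mitoribosomal genes they were not (8592 and 10073 bp). The part of length in the differences from all genes was not tested for either list. The higher share in shNIT2 did not hold for strong regions. Counting regions with a −log10 q of at least 10, 19.5% of mitoribosomal genes were marked in shNIT2 against 22.7% of all genes, and with a fold of at least 5, 20.8% against 24.9%. Among the 10000 strongest regions it was 22.1% against 24.3%.

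**Figure D1:**
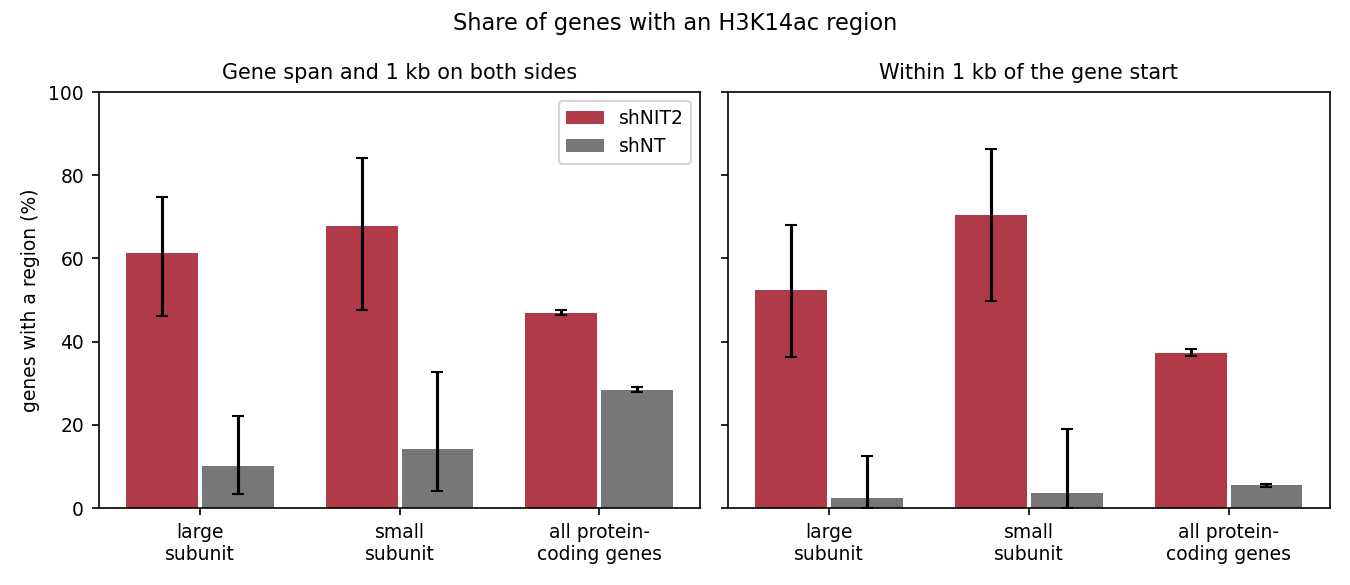
Share of genes with an H3K14ac region (vertical axis, percent) in shNIT2 (red) and shNT (grey), for the large subunit, the small subunit and all protein-coding genes. The left panel counts regions in the gene span extended by 1 kb, the right panel regions within 1 kb of the gene start, and bars carry exact 95% intervals of counting error. Both subunits stand above all genes in shNIT2 (61.2% and 67.9% against 47.0% in the left panel) and below them in shNT.

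The shares of marked genes in the large and the small subunit depended on the window. In shNIT2, 30 of 49 large subunit genes (61.2%, interval 46.2 to 74.8) and 19 of 28 small subunit genes (67.9%, interval 47.6 to 84.1) had a region. Without the 1 kb extension the counts were 23 of 49 large (46.9%, interval 32.5 to 61.7) and 19 of 28 small subunit genes (67.9%), beside 43.0% of all genes. The intervals overlapped with either window, and the difference was not tested. In shNT the counts were 5 large and 4 small subunit genes. Within 1 kb of the gene start, for the 69 members whose start and strand the RefSeq promoter table gives, 22 of 42 large (52.4%) and 19 of 27 small (70.4%) subunit genes were marked in shNIT2, together 59.4% beside 37.4% of all genes. In shNT, only MRPL16 and MRPS27 were marked at the start, 2.90% of members beside 5.51% of all genes. Structures of the human mitoribosome place the proteins of MRPS18A and MRPS30 in the large subunit. Counted that way, 32 of 51 large and 17 of 26 small subunit genes were marked in shNIT2.

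Members were also grouped by whether their protein has a counterpart in the bacterial ribosome, an assignment made from general knowledge and not from the files. Of the 47 genes whose protein belongs to a family with a bacterial ribosomal counterpart, 36 were marked in shNIT2 (76.6%, interval 62.0 to 87.7). Of the 30 genes without an assigned bacterial counterpart, 13 were (43.3%, interval 25.5 to 62.6), close to the share of all genes. The order was the same in each subunit, with 22 of 29 against 8 of 20 in the large subunit and 14 of 18 against 5 of 10 in the small subunit. The intervals of the shares overlapped slightly over both subunits and widely within each, and the difference was not tested. In shNT the counts were 5 of 47 and 4 of 30. MRPL55, marked in neither list, was counted without a counterpart, although its protein is also named bL31m. Counted with one, the shNIT2 counts were 36 of 48 and 13 of 29.

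Promoters of 7 genes are printed here because the results turn on them: a gene marked in shNIT2 alone, 2 genes that share 1 region, a gene whose strongest region lies within a neighbour as well, the gene where the lists overlap, a gene marked in shNT alone and a gene marked in neither list. Each holds 300 bases, from 250 before to 50 after the gene start, and was read 5′ to 3′ on the gene's strand from RefSeq (GRCh38.p14). Capitals mark matches on either strand to GCGCANGCG (nuclear respiratory factor 1, NRF1), CCGGAAG (the ETS family, which includes GABPA), GGGCGG (the GC box of SP factors) or AANATGGC (YY1). These factors are known regulators of nuclear genes for mitochondrial proteins.
MRPS10 lies at chr6:42217812-42218111 on the minus strand and was marked in shNIT2 alone.
MRPS10: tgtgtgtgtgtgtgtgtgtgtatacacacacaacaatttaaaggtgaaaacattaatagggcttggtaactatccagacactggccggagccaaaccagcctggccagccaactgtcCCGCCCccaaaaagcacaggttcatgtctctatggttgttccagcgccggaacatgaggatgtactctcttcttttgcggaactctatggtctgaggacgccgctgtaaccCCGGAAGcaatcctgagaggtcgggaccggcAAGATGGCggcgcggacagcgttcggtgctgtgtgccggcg
MRPL46 (chr15:88467339-88467638, minus strand) and MRPS11 (chr15:88467458-88467757, plus strand) start 320 bp apart in opposite directions, and their printed windows share 181 bases, read on opposite strands.
MRPL46: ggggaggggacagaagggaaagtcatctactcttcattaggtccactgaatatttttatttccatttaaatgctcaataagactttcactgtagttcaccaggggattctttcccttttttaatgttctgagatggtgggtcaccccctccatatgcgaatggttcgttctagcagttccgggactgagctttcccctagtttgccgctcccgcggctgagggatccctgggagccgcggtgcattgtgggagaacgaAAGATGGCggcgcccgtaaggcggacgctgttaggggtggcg
MRPS11: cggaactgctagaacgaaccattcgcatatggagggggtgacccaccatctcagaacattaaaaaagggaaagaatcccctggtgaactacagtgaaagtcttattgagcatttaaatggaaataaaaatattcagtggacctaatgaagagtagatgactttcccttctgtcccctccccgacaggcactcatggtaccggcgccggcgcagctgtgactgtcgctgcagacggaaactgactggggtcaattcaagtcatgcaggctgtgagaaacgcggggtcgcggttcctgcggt
MRPL14 (chr6:44127259-44127558, minus strand) was marked in both lists, at different places.
MRPL14: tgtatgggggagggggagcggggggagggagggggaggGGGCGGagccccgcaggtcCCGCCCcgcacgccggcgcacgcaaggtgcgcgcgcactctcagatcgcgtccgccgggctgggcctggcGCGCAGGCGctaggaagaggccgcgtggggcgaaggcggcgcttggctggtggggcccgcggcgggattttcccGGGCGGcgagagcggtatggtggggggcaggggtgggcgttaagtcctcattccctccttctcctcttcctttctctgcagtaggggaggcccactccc
MRPL16 (chr11:59810729-59811028, minus strand) was the 1 of 7 members marked in both lists where regions of the lists overlapped, as they did at 43.0% of all genes marked in both.
MRPL16: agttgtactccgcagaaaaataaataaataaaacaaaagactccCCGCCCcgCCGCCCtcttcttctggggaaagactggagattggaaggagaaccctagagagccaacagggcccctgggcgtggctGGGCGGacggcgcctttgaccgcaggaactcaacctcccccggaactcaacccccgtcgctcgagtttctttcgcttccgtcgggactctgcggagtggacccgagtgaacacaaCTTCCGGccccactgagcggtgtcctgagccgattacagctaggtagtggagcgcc
MRPS27 (chr5:72320191-72320490, minus strand) was marked in shNT alone.
MRPS27: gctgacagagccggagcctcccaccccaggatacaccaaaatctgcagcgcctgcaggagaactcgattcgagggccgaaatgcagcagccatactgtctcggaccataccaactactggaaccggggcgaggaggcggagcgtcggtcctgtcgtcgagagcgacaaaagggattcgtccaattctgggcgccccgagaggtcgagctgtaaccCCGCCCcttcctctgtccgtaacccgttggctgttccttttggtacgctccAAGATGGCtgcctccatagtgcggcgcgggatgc
MRPL51 (chr12:6493213-6493512, minus strand) was marked in neither list.
MRPL51: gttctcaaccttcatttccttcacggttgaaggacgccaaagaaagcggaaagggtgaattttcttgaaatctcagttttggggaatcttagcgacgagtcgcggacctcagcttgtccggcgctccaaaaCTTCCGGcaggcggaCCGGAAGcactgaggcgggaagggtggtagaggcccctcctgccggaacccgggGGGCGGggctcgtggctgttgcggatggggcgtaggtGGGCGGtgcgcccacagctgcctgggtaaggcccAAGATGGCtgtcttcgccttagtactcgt

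Among these examples, MRPS10, marked in shNIT2, and MRPL51, marked in neither list, both held ETS, GC box and YY1 matches, with 3 matches in all in MRPS10 and 5 in MRPL51. MRPL14 was the printed promoter with an NRF1 match, beside 3 GC boxes. MRPS11 had no match to any of the motifs, and MRPL46 had a single YY1 match.

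Over all 69 promoters, ETS and YY1 matches were common in mitoribosomal genes. ETS matches stood in 29 promoters (42.0%, interval 30.2 to 54.5), beside 14.2% of all 15842 protein-coding promoters of the same length. YY1 matches stood in 25 (36.2%, interval 24.99 to 48.7), beside 7.92% of all promoters. In 22 of those 25 (88.0%) the YY1 match reached past the gene start, beside 58.1% of all promoters with a match, as it does in MRPS10, MRPL46, MRPS27 and MRPL51 above. NRF1 matches were found in 13 promoters (18.8%, beside 11.0%) and GC boxes in 42 (60.9%, beside 58.5%). By subunit, NRF1 matches were in 10 of 42 large and 3 of 27 small subunit promoters, and ETS matches in 17 of 42 and 12 of 27. In 1 of the 69 promoters, matches of different motifs overlapped, beside 92 of all 15842.

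The motifs were counted in members marked and not marked in shNIT2, with no test of the difference. ETS matches were in 16 of 43 marked (37.2%, interval 22.98 to 53.3) and 13 of 26 unmarked members (50%, interval 29.9 to 70.1), and YY1 matches in 16 of 43 and 9 of 26. NRF1 matches were in 8 of 43 and 5 of 26, and GC boxes in 27 of 43 and 15 of 26. Over all protein-coding genes, marked genes held each motif more often, for example ETS in 18.3% of marked and 10.3% of unmarked genes. A match is a run of letters and does not show that a factor was bound.

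**Figure D2:**
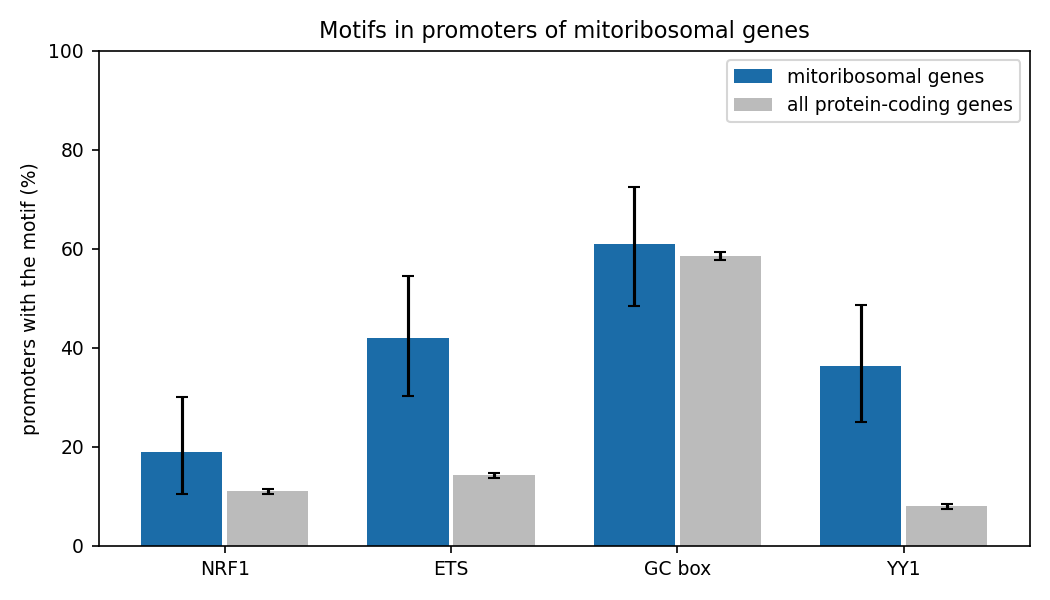
Share of promoters with at least 1 exact match to each motif on either strand (vertical axis, percent), for 69 mitoribosomal genes (blue) and all 15842 protein-coding genes with a promoter sequence (grey), with exact 95% intervals. ETS (42.0% against 14.2%) and YY1 (36.2% against 7.92%) differ most between the sets, and the GC box (60.9% against 58.5%) least.

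Of the large subunit genes, 3 stood apart by the fold of their region in shNIT2. MRPL23, whose protein lines the rim of the tunnel through which the new chain leaves, had the highest fold of all members, 13.8 at chr11:1947342-1948424, with 47 fragments at the summit and a −log10 q of 39.5. That placed it at percentile 95.4 of the strongest regions of all marked genes. MRPL2, which binds near the peptidyl transferase centre, had a region of 11.1-fold with 59 fragments, but its summit lay within CUL7. MRPL15, a core RNA-binding protein, had a region of 9.85-fold with 34 fragments inside the gene. None of these 3 genes had a region in shNT.

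The next large subunit genes had lower folds, between 6.41 and 4.89. MRPL14, at the interface of the subunits, had 6.41-fold, and MRPL12, of the stalk that recruits translation factors, had 6.29-fold. MRPL36, a small zinc-binding protein, had 5.90-fold with its summit within NDUFS6. MRPL35 had 5.67-fold, MRPL48 of the central protuberance 5.22-fold, and MRPL20 5.10-fold. MRPL18, also of the central protuberance, had 4.89-fold with its summit within TCP1. These 7 genes had between 16 fragments (MRPL18) and 32 fragments (MRPL14) at the summit of their strongest region. The lowest of the 30 marked large subunit genes was MRPL4, with 2.65-fold and 12 fragments.

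By fold, no small subunit gene reached the values of MRPL23, MRPL2 and MRPL15. MRPS18B led with 7.61-fold, 50 fragments and a −log10 q of 26.6, but that summit lay within PPP1R10, 1536 bp outside MRPS18B. The region with its summit inside MRPS18B had 6.37-fold and a −log10 q of 21.0. MRPS35, without a bacterial counterpart, followed with 6.77-fold, 53 fragments and a −log10 q of 25.4. By −log10 q, the strongest region of each exceeded that of MRPL15 (23.5), but the region inside MRPS18B did not. Next by fold came MRPS6 with 6.44-fold and MRPS18A with 6.38-fold. MRPS25 had 6.08-fold, MRPS10 5.64-fold and MRPS5, which in bacteria lies at the entry of the mRNA channel, 5.49-fold. MRPS24 had 4.74-fold, MRPS15 4.68-fold and MRPS16 4.43-fold. MRPS26, with 2.87-fold and 9 fragments, and MRPS30, with 2.74-fold and 14 fragments, were the weakest of the 19. The median fold of the strongest region was 4.22 in marked large and 4.43 in marked small subunit genes.

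The other marked members had lower folds in shNIT2. In the large subunit, MRPL13 had 4.72-fold with 23 fragments, MRPL44, a protein related to ribonuclease III, 4.57-fold with 24 fragments, and MRPL19 4.31-fold with 14 fragments. MRPL37, MRPL30, MRPL17 and MRPL3 lay between 3.81 and 3.62-fold, and MRPL40, MRPL38 and MRPL33 between 3.45 and 2.85-fold. Of these 10 genes, MRPL3 and MRPL33 had 26 and 20 fragments at the summit, more than MRPL19 despite lower folds, since their background was 6.47 and 6.38 fragments against 2.48. In the small subunit, MRPS17 had 4.42-fold with 32 fragments, and MRPS2 and MRPS9 had 3.77 and 3.76-fold with 22 and 13 fragments.

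The strongest regions of members had lower medians than those of all marked genes. The median fold of the strongest region was 4.33 over the 49 marked members, beside 5.17 over the 9418 marked protein-coding genes, and the median −log10 q was 6.53 beside 9.59. Fragments at the summit were 22 beside 25, and widths were 626 bp beside 657 bp. Marked members were shorter genes than all marked genes (median spans of 8592 and 35897 bp), and the part of length in these medians was not tested. In all, 62 distinct regions marked members in shNIT2, with 2.59 to 13.8-fold and 9 to 59 fragments. Of the marked members, 40 had 1 region and 9 had more, and the same split was not counted over all genes.

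**Figure D3:**
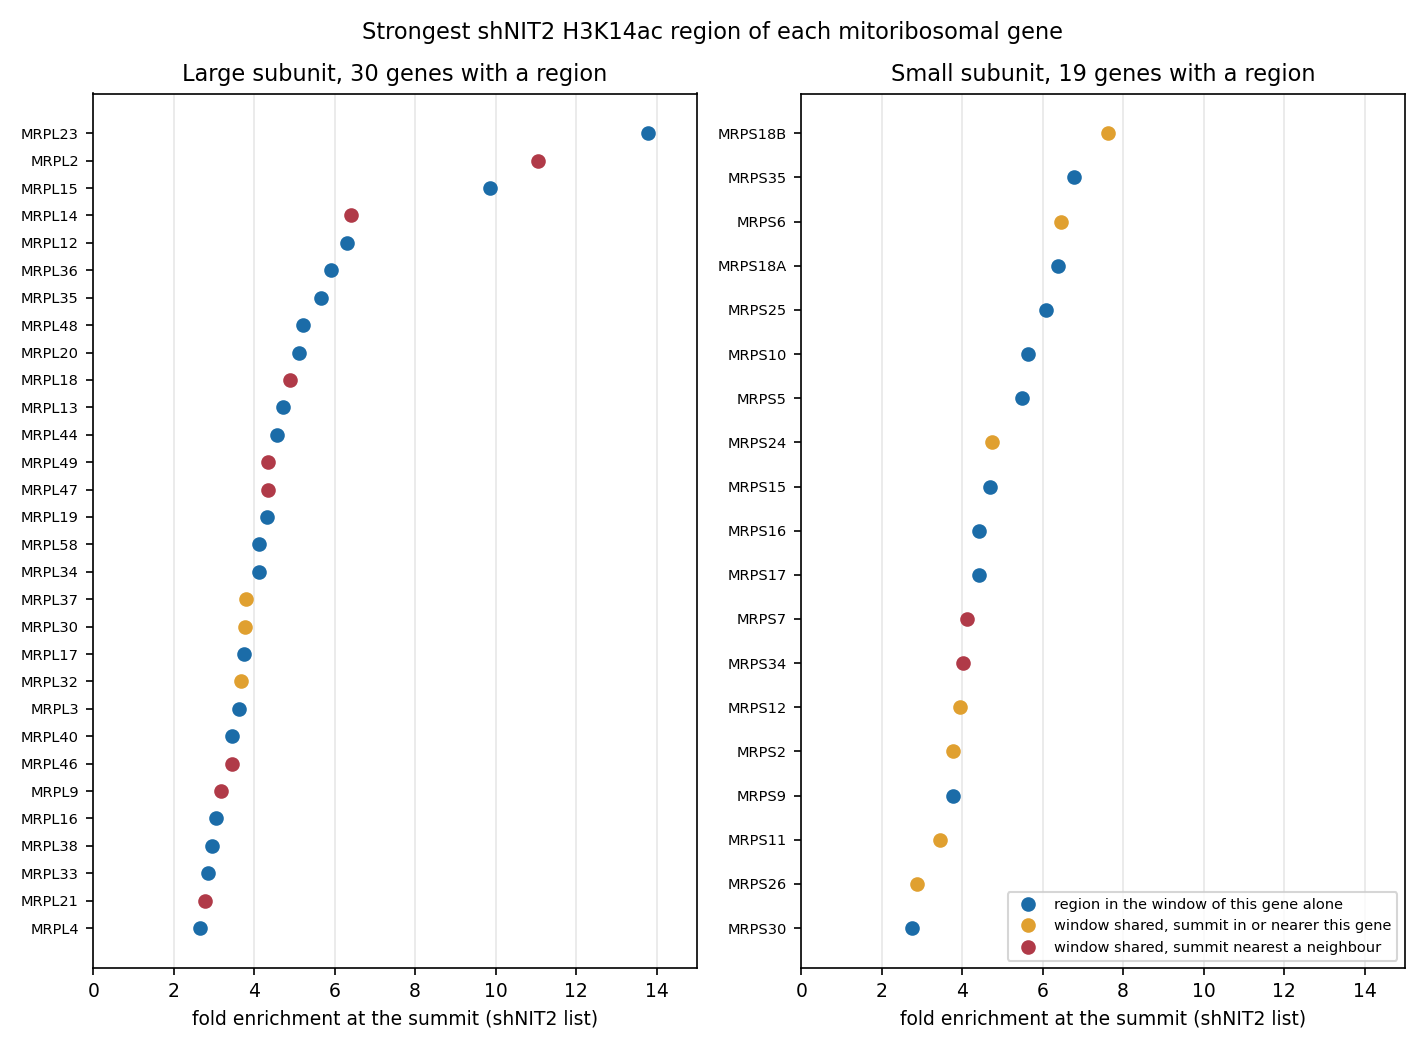
Fold enrichment at the summit of the strongest shNIT2 region (horizontal axis) for each marked gene. The large subunit is on the left (30 genes) and the small subunit on the right (19 genes). Colours show whether any shNIT2 region or summit belongs to the gene, or all summits lie nearer a neighbour. At MRPL36 and MRPS18B the plotted summit lies in a neighbour, and the colour refers to another region of the gene. MRPL23, MRPL2 and MRPL15 lie at 13.8, 11.1 and 9.85-fold, and all other genes at 7.61-fold or below.

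MRPS35 held more regions than any other member, 6 covering 4439 bp. One lay at its start (summit 220 bp inside, 4.17-fold), and the other 5 stood between 36348 and 43279 bp into the gene, near its far end. The strongest of these, at chr12:27751152-27752860, was 1709 bp wide. No other protein-coding gene lay within 1 kb of these regions, and the 1 shNT region of MRPS35 lay elsewhere, 3620 bp from the start. Background at the 6 shNIT2 regions was high, from 6.98 to 11.4 fragments, the last being the highest at any member. The median at the strongest regions of marked members was 4.08. The part of background in the number of regions was not tested.

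Near gene starts, summits stood on either side of the start and mostly after it. In shNIT2, 47 summits of 40 members lay within 1 kb of the start, with 34 inside the gene (median 352 bp after the start) and 13 before it (median −491 bp). The stretch from 250 bp before the start to the start held 1 summit, at MRPS5, 2.13% of them beside 1.98% over all genes, while the stretch from 250 up to 500 bp after it held 21 (44.7%, beside 39.3%). The median position was 306 bp in members and 289 bp in all genes. A summit near 2 members, as at MRPL46 and MRPS11, was counted for each.

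The subunits differed in the side. Of 27 summits at large subunit genes, 11 lay before the start, whereas 18 of 20 summits at small subunit genes lay after it. The region shared by MRPL46 and MRPS11 entered both counts, before the start of MRPL46 and after that of MRPS11. By gene, 17 of 19 small subunit genes had summits after the start alone, against 10 of 21 large subunit genes, and over all genes the share was 62.9%. The 5 large subunit genes with a summit before the start alone were MRPL9, MRPL18, MRPL46, MRPL47 and MRPL49. In each of them the summit lay within the gene on the other side. This difference between the subunits was noticed in these values and was not tested.

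Summits on both sides of the start were found at 7 members (17.5% of 40, beside 19.6% of all genes): MRPL12, MRPL14, MRPL32, MRPL36, MRPL48, MRPL58 and MRPS2. The spacing of the nearest summits ran from 721 bp at MRPL12 to 1112 bp at MRPL36. MRPL58 encodes a peptidyl-tRNA hydrolase built into the large subunit. Its regions stood at −514 bp (2.65-fold) and 504 bp (4.13-fold).

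**Figure D4:**
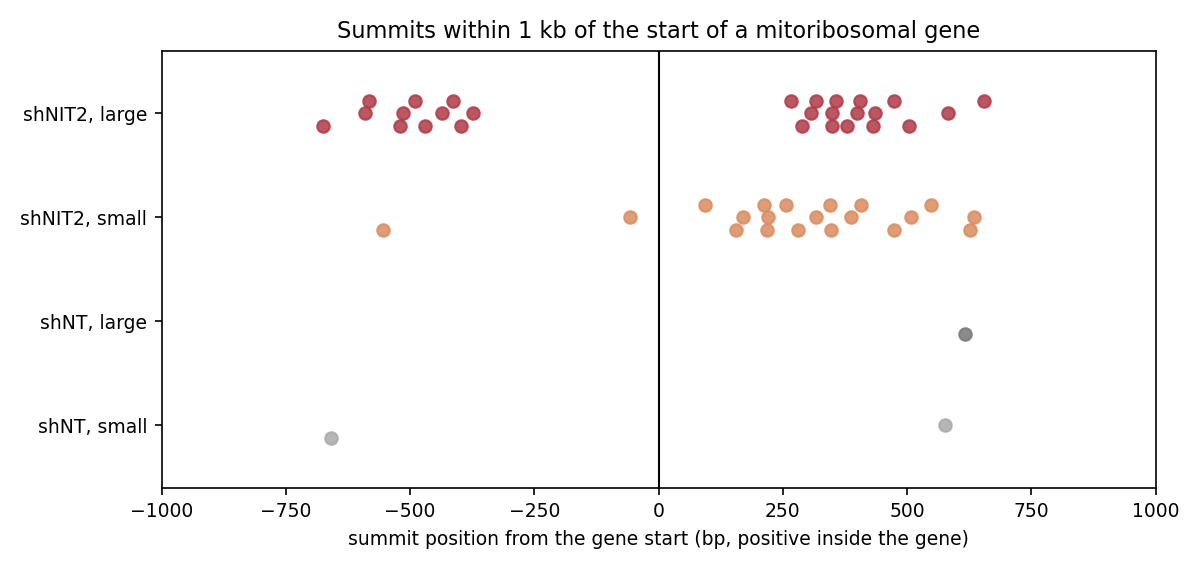
Position of each summit within 1 kb of the start of a member (horizontal axis, bp, positive inside the gene), by list and subunit, with points spread vertically for legibility. Large subunit summits in shNIT2 form a group before and a group after the start, small subunit summits lie almost all after it, and shNT has 3 summits.

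Many of these regions also fell within 1 kb of another protein-coding gene. Of the 49 members marked in shNIT2, 29 had at least 1 region in the window of no other gene (59.2%, interval 44.2 to 73.0), beside 77.3% of all marked genes. That was so for 19 of 30 large and 10 of 19 small subunit genes. A further 10 members (3 large, 7 small) shared every region's window with a neighbour but had a summit in or nearer to themselves, and 10 (8 large, 2 small) had every summit nearer to the neighbour. With the regions nearer to a neighbour left out, 39 of 77 members were marked (50.6%), beside 43.4% of all genes.

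The 8 large subunit genes whose regions lay nearer to a neighbour had partners of several kinds. MRPL2 stood beside CUL7, a scaffold of a ubiquitin ligase, and the summit of its 11.1-fold region (chr6:43053033-43053795) lay 464 bp outside MRPL2. MRPL47 stood beside NDUFB5, a subunit of respiratory complex I, with 4.33-fold, and MRPL49 beside FAU, which encodes a cytosolic ribosomal protein, with 4.34-fold. MRPL18 stood beside TCP1, a subunit of the cytosolic chaperonin, with 4.89-fold. MRPL9 stood beside OAZ3 with 3.18-fold, and MRPL21 beside the helicase gene IGHMBP2 with 2.77-fold. MRPL14 stood beside TMEM63B, and the summit of its 6.41-fold region lay in both gene spans. MRPL46, last, stood beside MRPS11.

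MRPL46 and MRPS11, with the promoters printed above, were marked by the same region. It lay at chr15:88467630-88468255 and had 3.44-fold enrichment with 27 fragments. Its summit was 93 bp inside MRPS11 and 413 bp before MRPL46. The 2 small subunit genes nearer to a neighbour were MRPS34 (4.02-fold, beside EME2 and NME3) and MRPS7 (4.13-fold, beside GGA3). Both summits also lay inside the mitoribosomal gene, and the call rests on the nearer gene end.

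Further members had a region that also lay in the window of a neighbour. The 5.90-fold region of MRPL36 had its summit in NDUFS6, a complex I subunit, while a region of 4.39-fold lay in MRPL36 alone. MRPS12, of the decoding centre, shared a 3.94-fold region with SARS2, the mitochondrial seryl-tRNA synthetase. MRPL32 shared both of its regions with PSMA2, a proteasome subunit, with 3.79-fold before and 3.66-fold after its start. The strongest region of MRPS18B had its summit in PPP1R10, and a second of 6.37-fold lay inside MRPS18B. The region of MRPS6 also lay within the span of SLC5A3, an inositol transporter gene. Regions were likewise shared by MRPL37 with CYB5RL, MRPL30 with MITD1, MRPS26 with GNRH2, MRPS2 with PIERCE1 and MRPL12 with HGS. The region of MRPS24 also lay in the readthrough gene URGCP-MRPS24, whose span covers it.

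Divergent neighbours were frequent. A neighbour on the opposite strand started within 1 kb of 18 of 69 members (26.1%), 12 large and 6 small, beside 10.3% of all genes. Neighbours whose start and strand the promoter table does not give could not be counted, and genes beside them fall among those without. Among members, 11 of 18 with such a neighbour were marked at the start in shNIT2 (61.1%, interval 35.7 to 82.7), against 30 of 51 without (58.8%, interval 44.2 to 72.4). Over all genes, the shares were 54.97% with a divergent neighbour and 35.4% without. The shortest distance was 45 bp, between MRPL27 and EME1, and MRPL27 was marked in neither list.

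In shNT, members were marked by 14 regions, of 3 to 7 fragments and 2.995 to 5.70-fold. Of these, 11 had their summit more than 1 kb from the gene start, between 3620 and 67761 bp after it, and MRPL48 held 4 of them. Over all genes too, shNT marked a smaller share at the start (5.51%) than in the extended span (28.5%), beside 2.90% and 11.7% of members. MRPL48 had shNIT2 regions of 3.29-fold 397 bp before its start and 5.22-fold 655 bp after it, while its shNT summits stood at 15938, 28620, 31940 and 67761 bp, the last with 5.70-fold and 7 fragments. MRPL47, a protein near the exit tunnel, had 5.23-fold with 6 fragments in shNT, 10014 bp from the start. MRPL14 had 4.68-fold with 6 fragments, at 8576 bp.

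The other members marked in both lists had strongest shNT regions of lower fold than MRPL48, MRPL47 and MRPL14. MRPS35 had 4.08-fold with 6 fragments, MRPL34 3.74-fold with 4 fragments and MRPS5 3.12-fold with 3 fragments. All of these genes were marked in shNIT2 as well, but at other positions. Only at MRPL16 did the lists meet: a region of 3.04-fold with 16 fragments in shNIT2 (chr11:59810113-59810542) overlapped one of 3.08-fold with 3 fragments in shNT (chr11:59810061-59810319), with summits 356 and 617 bp after the start. Of the 7 members marked in both lists, 1 thus had overlapping regions (14.3%, interval 0.361 to 57.9), beside 43.0% of the 3926 protein-coding genes marked in both.

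The 2 genes marked in shNT alone were both small subunit genes without a bacterial counterpart. MRPS27, a pentatricopeptide repeat protein, had 4.49-fold with 5 fragments 576 bp after its start. A second region 659 bp before the start had 3.11-fold with 4 fragments, and its summit lay in PTCD2, a divergent neighbour that also encodes a pentatricopeptide repeat protein. The nearest shNIT2 region was 279489 bp away. MRPS31 had shNT regions of 3.91-fold with 4 fragments and 3.05-fold with 3 fragments, 37954 and 34003 bp from the start, and the nearest shNIT2 region lay 17544 bp outside the gene.

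**Figure D5:**
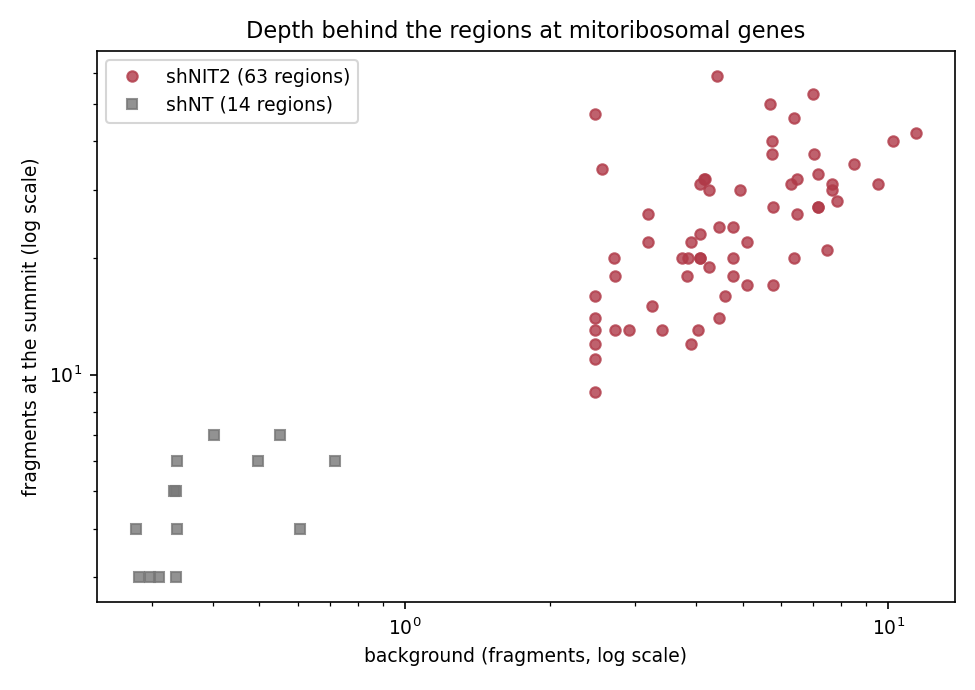
Fragments at the summit (vertical axis, log scale) against background fragments (horizontal axis, log scale) of each region at a member, both solved from the deposited fold and −log10 p, for shNIT2 (red circles, 63 regions, the one shared by MRPL46 and MRPS11 drawn for each) and shNT (grey squares, 14 regions). Fragments run from 9 to 59 in shNIT2 and from 3 to 7 in shNT, and these ranges do not overlap. For the strongest regions of all marked genes they run from 9 to 409 in shNIT2 and from 3 to 72 in shNT, and overlap.

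The 26 members without a region in either list comprised 19 of 49 large and 7 of 28 small subunit genes. They were MRPL1, MRPL10, MRPL11, MRPL22, MRPL24, MRPL27, MRPL28, MRPL39, MRPL41, MRPL42, MRPL43, MRPL45, MRPL50, MRPL51, MRPL52, MRPL53, MRPL54, MRPL55 and MRPL57 of the large subunit. In the small subunit they were MRPS14, MRPS18C, MRPS21, MRPS22, MRPS23, MRPS28 and MRPS33. MRPL1 and MRPL11, proteins of the stalks of the large subunit, were among them. In shNIT2, 7 large subunit genes were marked through the 1 kb extension: MRPL9 (436 bp to its region), MRPL18 (388 bp), MRPL46 (242 bp), MRPL21 (239 bp), MRPL2 (234 bp), MRPL47 (233 bp) and MRPL49 (135 bp). Just outside it were MRPL54 (1144 bp), MRPL52 (1643 bp) and MRPL50 (2725 bp). In shNT, MRPL34 was marked through the extension, and MRPL20, MRPL38, MRPL52 and MRPS10 lay between 1 and 3 kb from a region.

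Other genes of mitochondrial translation were counted in the same way, with no test against the members. Of 5 mitoribosomal proteins with other names, AURKAIP1, DAP3 and GADD45GIP1 were marked in shNIT2 (4.35, 2.44 and 2.86-fold), and AURKAIP1 and CHCHD1 in shNT (3.13 and 4.21-fold). Of 25 assembly and rRNA modification genes, 15 were marked in shNIT2 (60.0%, interval 38.7 to 78.9) and 5 in shNT (20.0%). They were led in shNIT2 by METTL15, an rRNA methyltransferase (10.4-fold), DHX30, a helicase of mitoribosome assembly (7.40-fold), and RCC1L, a factor of large subunit assembly (7.37-fold). Of 17 translation factor genes, 9 were marked in shNIT2 (52.9%, interval 27.8 to 77.0) and 1, the release factor gene MTRF1, in shNT (5.88%). MTRFR, which rescues stalled ribosomes, had 9.20-fold, OXA1L, which inserts new proteins into the inner membrane, 8.52-fold, and the deformylase gene PDF 6.32-fold in shNIT2. All these shares stand beside 47.0% of all genes in shNIT2 and 28.5% in shNT.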

How the data were processed

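H3K14ac ChIP-seq of MKN45 cells was analysed from 2 deposited peak lists, 1 per H3K14ac library, and no input values entered. Per the labels' protocols, chromatin was fixed with formaldehyde and sonicated, and reads were single-end. Tools and build are named in the submitters' processing notes: for reads, Bowtie2 2.2.6, Trimmomatic 0.35, cutadapt 1.9.1 and FastQC, for peaks, MACS2 2.1.1 and ChIPseeker, all on hg38. The peak caller's control and the treatment of duplicates are not given in the sources used here. The authors' deposited values per region are a score, the fold at the summit (ratio of pileup to background, pseudocount 1), −log10 p-value, −log10 q-value and summit. The lowest −log10 q was 1.30 in both lists, a q threshold of 0.05.

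Fragments and background at each summit were solved from the fold and −log10 p with the Poisson upper tail, within 0.1% of the −log10 p, for 99.96% of regions of each list, and the total depth is unknown. Genes came from RefSeq (GRCh38.p14, the chromosomes of hg38), all 77 members matched by symbol. Start and strand came from its promoter table (69 members; 15842 of 20037 genes), so exons, introns and UTRs were not distinguished. Overlap of at least 1 bp marked a gene. Python 3.11.15, pandas 2.3.3 and scipy 1.17.1 were used, and the overlap and pileup steps were tested on simulated data. Samples were grouped by hairpin and antibody. Named with values are every member marked in shNT, the 10 highest folds per subunit in shNIT2, and members whose regions lie nearer a neighbour; genes named beyond these were chosen after their values were seen. Members and lists were chosen with earlier results of these data known. MRPL55 was moved between groups in an alternative added after the data were seen. Other alternatives were other windows, stricter q or fold, the strongest 10000 regions, neighbour regions left out, subunit by structure and 1 mismatch in a motif.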

Additional observations from a re-analysis of the deposited data

How the results depend on the processing

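No paired analysis was possible because each condition had 1 H3K14ac library, and for the same reason no replicate could be left out. Compared below are the counts of members marked in shNIT2 (49), shNT (9), both (7), shNIT2 alone (42) and shNT alone (2), the large (30) and small (19) subunit counts, all genes marked in shNIT2 (9418) and shNT (5710), and the 29 members with a region of their own. Stricter limits on the regions moved most of these. At a −log10 q of at least 5, 34 members stayed marked in shNIT2 (44.2%, beside 36.01% of all genes), but 0 in shNT, both or shNT alone, 19 of the large subunit, and 1188 of all genes in shNT. At a −log10 q of at least 10, members marked in shNIT2 and in shNIT2 alone were 15, those in shNT, both or shNT alone 0, the subunits 7 and 8, all genes 4556 and 206, and members with an own region 9. At a fold of at least 5, the counts were 16 in shNIT2, 2 in shNT, 1 in both, 15 in shNIT2 alone, 1 in shNT alone, 9 and 7 by subunit, 4989 and 2091 for all genes, and 11 with an own region. Among the 10000 strongest regions of each list, 17 members were marked in shNIT2 and in shNIT2 alone (22.1%, beside 24.3% of all genes), 0 in shNT, both or shNT alone, 8 and 9 by subunit, 4873 and 617 of all genes, and 11 had an own region.

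The window mattered mainly for shNT. With gene ends only, 3 members were marked in shNT, 2 in both and 1 in shNT alone, with 1285 of all genes in shNT. With gene starts only, the counts were 2, 1 and 1 of the 69 members with a known start. Of the 15842 genes with a known start, 5920 (37.4%) were marked in shNIT2 and 873 (5.51%) in shNT. These counts cannot be set directly against those out of 77 members and 20037 genes. A 3 kb extension gave 11 in both, and leaving out neighbour regions gave 4 in shNT alone. For all genes, the counts in both lists and in shNT alone were made only in the main count. With 1 mismatch allowed, motif shares were 55.1% (NRF1), 82.6% (ETS), 100% (GC box) and 66.7% (YY1), beside 42.0%, 72.8%, 93.6% and 43.9% of all promoters. Under each of 10 alternatives, 9 members stayed marked in shNIT2: MRPL12, MRPL36, MRPL48, MRPS6, MRPS10, MRPS18A, MRPS18B, MRPS25 and MRPS35. MRPL36 met the −log10 q limit of 10 and the fold limit of 5 only through the region with its summit in NDUFS6. Its region held by no neighbour had 4.39-fold and a −log10 q of 9.64. The 8 members without a known start could not pass the one on gene starts. Of these, MRPL15 and MRPL23 stayed marked under the other 9. The share of members marked in shNIT2 stood above that of all genes with every window tried and at a −log10 q of at least 5, and below it at a −log10 q of at least 10, a fold of at least 5 and among the 10000 strongest regions. The cause was not tested. Depth limits what the shNT list can show, since its regions at members rest on 3 to 7 fragments.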

Other observations

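The gene first named MRPS36 is KGD4 in RefSeq, which encodes a subunit of the 2-oxoglutarate dehydrogenase complex, and so was not counted as a mitoribosomal gene. KGD4 had 0 regions in shNIT2 and 2 in shNT, the stronger of 5.997-fold.

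At 3 members with a known start and a region in shNIT2, no summit lay within 1 kb of the start. The summit of MRPL4 stood 8139 bp from its start, 35 bp past the far end of the gene, that of MRPL34 13691 bp and that of MRPL30 1470 bp from the start. A single start per gene was used, and other starts of these genes were not considered.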
